A study of Mus musculus with 6 samples.

Results

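The reticulons and the Nogo receptor complex are described here by 10 genes of the mouse genome, taken by gene symbol from a table of 54532 genes. They are the reticulon paralogs Rtn1, Rtn2, Rtn3 and Rtn4, the Nogo receptor genes Rtn4r, Rtn4rl1 and Rtn4rl2, the co-receptor genes Lingo1 and Ngfr, and Rtn4ip1, whose product was named for its interaction with reticulon 4. RNA sequencing had been done on 6 libraries of N2a cells, a mouse neuroblastoma cell line labelled as strain C57BL/6 and maintained in MEM with fetal bovine serum. The study's general methods move transfected N2a cells to a differentiation medium with retinoic acid before harvest, and the labels do not say whether this was done for these libraries. In 3 libraries the cells had been transfected with si-NC, the negative control siRNA, and in the other 3 with si-circRtn4, an siRNA against a circular RNA made from exons of Rtn4. All 6 libraries therefore come from transfected cells of the same line, and no library of untransfected cells was analysed here. The labels do not say whether the 3 libraries of a group came from separate cultures, so p-values measure the spread between these libraries, which may be technical. The values are FPKM, read numbers scaled to the exon length of the gene and to the reads of the library, and 6 of the 10 genes reached a mean of 1 FPKM and were tested, among 12749 genes tested in all.

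Reticulons are membrane proteins of the endoplasmic reticulum that share a C-terminal reticulon homology domain, and they bend the membrane into tubules. The longest product of Rtn4, Nogo-A, is also known as an inhibitor of neurite growth in the central nervous system. Nogo binds the receptor encoded by Rtn4r on neurons, which has no intracellular part and signals to RhoA through LINGO-1 and the p75 neurotrophin receptor, the products of Lingo1 and Ngfr. The comparison asks how the RNA of this family differed when circRtn4, which comes from a member of it, was the target of an siRNA.

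The sequences of the siRNA and of its target show which part of Rtn4 was addressed. CircRtn4 joins the end of exon 3 of Rtn4 (chr11:29706410-29708770, 2361 bases) to the start of exon 2 (chr11:29705535-29705591, 57 bases) on the plus strand in GRCm38. Both exons are coding sequence. In the siRNA as listed by the study, capitals mark the 6 bases from exon 3 and the following 13 bases are from exon 2. The guide is assumed to be the strand complementary to the one listed, and its capitals mark the seed (bases 2 to 8). In the back-splice junction, shown with 15 bases from each exon, capitals mark the target of the siRNA. In miR-24-3p, the microRNA that the series title pairs with circRtn4, capitals mark the seed. The microRNA sequence is from RefSeq (GRCm38.p6).
si-circRtn4, listed strand: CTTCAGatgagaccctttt
si-circRtn4, guide strand: aAAAGGGTctcatctgaag
circRtn4 back-splice junction: tgaataaaaCTTCAGATGAGACCCTTTTtg
mmu-miR-24-3p: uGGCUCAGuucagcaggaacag

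The whole siRNA sequence of 19 bases was found in 0 transcripts of GENCODE M21. Linear Rtn4 transcripts held a run of at most 14 of its bases, GATGAGACCCTTTT, which are the 13 bases of exon 2 and the last base of the exon spliced before it. Transcripts of the other 9 members held runs of 6 bases (Rtn4rl2) to 9 bases (Rtn2 and Rtn4ip1). The circle makes up 2418 of the 6991 exon bases over which Rtn4 was measured, 34.6%. Of 10 annotated Rtn4 transcripts, 3 contain exon 2 and 2 contain exon 3. The Rtn4 value of a library therefore adds reads from linear transcripts to any reads from the circle, and neither can be told from the other.

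The 7-base sites that pair with the 2 seeds were searched on the sense strand of the transcripts of all members. All guide seed sites of the members are shown, and those of miR-24-3p in Rtn4, because they mark where these transcripts carry the letters that the siRNA guide or miR-24-3p could pair with. Capitals mark the site, and each line gives the gene, the region and the position in GRCm38.
Rtn4, coding exon 2, plus strand, chr11:29705540-29705546, guide seed site: gtggatgagACCCTTTttgctcttc
Rtn4, 3′ UTR, plus strand, chr11:29742367-29742373, guide seed site: ggaaaaacaACCCTTTtcacagtgt
Rtn4ip1, 3′ UTR, plus strand, chr10:43947849-43947855, guide seed site: atgtaataaACCCTTTcctcctc
Rtn2, coding exon, plus strand, chr7:19293274-19293280, guide seed site: acggcaccaACCCTTTccaggccta
Rtn1, coding exon, minus strand, chr12:72223335-72223341, guide seed site: atgagggtcACCCTTTcaaggccta
Rtn4, coding exon 2, plus strand, chr11:29705565-29705571, miR-24-3p seed site: ctgctgcatCTGAGCCtgtgatacc
Rtn4, coding exon 3, plus strand, chr11:29707907-29707913, miR-24-3p seed site: agctctccaCTGAGCCaagtccaga

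Both miR-24-3p seed sites of Rtn4 lie in the exons of the circle, and so does the exon 2 site of the guide. Sites of miR-24-3p were also found in Rtn2 (3 sites, 1 of them coding), Lingo1 (3 sites, none coding), Rtn4r (1 coding site) and Rtn4rl2 (1 coding site). Rtn3 transcripts held neither site. A 3′ UTR site of the guide was present in Rtn4 and Rtn4ip1, against 13.1% of the 10697 tested genes with an annotated 3′ UTR. A 3′ UTR site of miR-24-3p was present in 0 members, against 21.6% of those genes. The members include genes that were not tested and so lie outside that background. Lengths were not matched, and the longest 3′ UTR of a member ran from 22 bases (Rtn4rl2) to 2302 bases (Rtn4). A match is a description of letters in a transcript and not evidence of pairing.

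**Figure D1:**
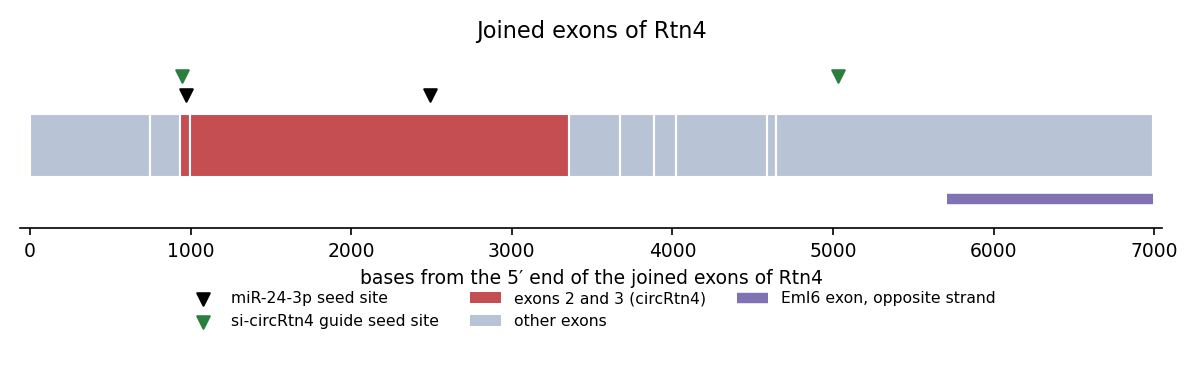
The exons of Rtn4 joined end to end, drawn to scale in bases from the 5′ end, with exons 2 and 3 of circRtn4 in red, seed sites of the siRNA guide (green) and of miR-24-3p (black) as triangles, and the stretch shared with an exon of Eml6 on the opposite strand as a purple bar. Both miR-24-3p sites fall in the red exons, and the shared stretch covers the last 1284 bases.

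Reads recovered for the listed genes from FPKM values and gene lengths summed to 14100818 to 14748929 with si-NC and 13541198 to 15122063 with si-circRtn4. These sums need not equal the library totals by which FPKM was scaled. Intervals and floors given from such reads cover counting error only. Markers of sympathetic neuroblastoma, the cell type of N2a, summed to 988 to 1102 FPKM with si-NC and 705 to 986 FPKM with si-circRtn4. Of the 9 tested, 3 were called lower and 0 higher by limma, where 4.82% and 4.36% of all genes tested were called. Markers of other cell types of nervous tissue summed to at most 5.70 FPKM in any library for oligodendrocytes, 4.998 for astrocytes, 0.786 for fibroblasts and 0.301 for macrophages and microglia. Of these, Aqp4 and Slc1a3 (astrocytes) and Itgam and C1qa (macrophages and microglia) were listed at 0 in all libraries. The short RNA gene Gm23935 took 20.1% to 20.7% of the summed FPKM with si-NC and 13.5% to 18.8% with si-circRtn4. Reads of mitochondrially encoded protein genes took 2.03% to 2.26% and 1.495% to 1.87%. Both shares were lower in every si-circRtn4 library, and their part in the results below was not tested. In bulk RNA, fewer cells of a type and less RNA per cell cannot be told apart.

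Reticulon RNA in N2a cells was carried by Rtn4, Rtn3 and Rtn2, while Rtn1 was near 0. With si-NC, Rtn4 averaged 65.9 ± 4.49 FPKM, Rtn3 46.6 ± 1.99 FPKM and Rtn2 22.8 ± 0.173 FPKM (SD, n = 3 each). Of the signalling partners, Ngfr was at 40.4 ± 5.90 FPKM and Lingo1 at 17.4 ± 4.42 FPKM, whereas 2 of the 3 Nogo receptor genes were at or near 0. With si-circRtn4, 0 of the 6 members tested passed an adjusted p of 0.05 in either direction by limma, where 4.82% of all genes tested were called lower and 4.36% higher. The lowest adjusted p among them was that of Rtn3 (0.0612), and Rtn3 was also the member whose groups did not overlap. An unadjusted p under 0.05 was reached by 1 of the 6, Rtn3, against 25.9% of all genes tested, and limma-voom on recovered reads called 1 lower, again Rtn3. When the replicate number was added to the fit as a block, 2 of the 6 were called lower, Rtn3 and Rtn4, and 0 higher, against 9.75% and 9.29% of all genes tested. The median log2 fold change of the 6 members was -0.04 on the log2(FPKM + 1) scale, beside 0.00197 for all genes tested.

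**Figure D2:**
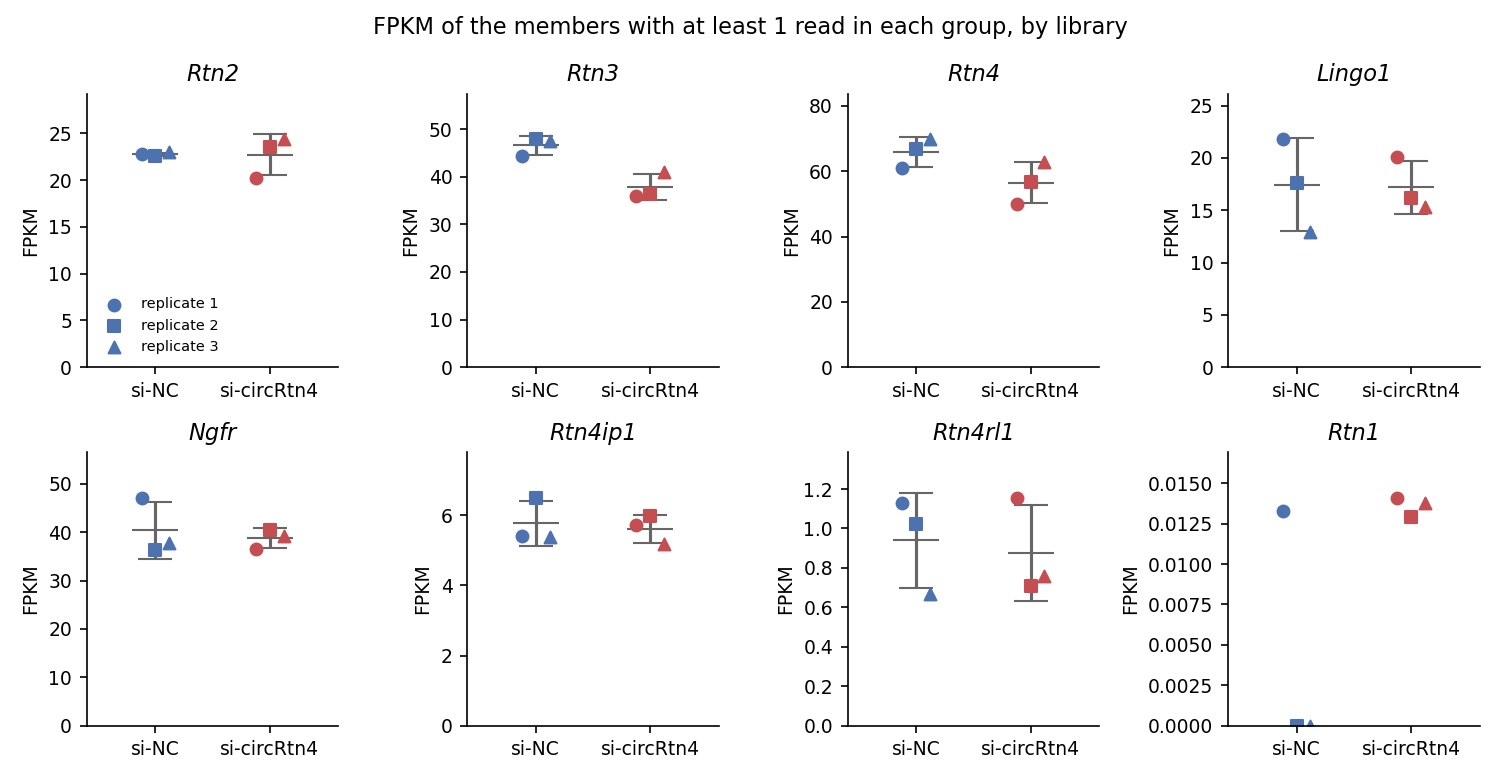
FPKM of 8 members in each library, by group (si-NC blue, si-circRtn4 red) and replicate number (symbol), with the mean and SD of 3 libraries as bars except for Rtn1, which had at most 1 read a library. The groups separate for Rtn3, with 44.3 to 47.9 FPKM against 35.97 to 41.1 FPKM, and overlap for the others shown.

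Rtn4 (ENSMUSG00000020458, chr11:29692947-29744331, plus strand) is the host gene of circRtn4 and encodes the Nogo proteins. Its level was 61.0, 66.8 and 69.8 FPKM in si-NC replicates 1, 2 and 3, and 50.1, 56.7 and 62.7 FPKM in si-circRtn4 replicates 1, 2 and 3. These values rest on 6436 to 6831 reads with si-NC and 4981 to 6375 reads with si-circRtn4. The groups overlapped, since the third si-circRtn4 library lay above the first si-NC library, but within each replicate number the si-circRtn4 library was the lower. It stood at 82.1%, 84.9% and 89.8% of the si-NC library of the same number. The mean was 56.5 ± 6.32 FPKM with si-circRtn4 (SD, n = 3), 85.8% of the si-NC mean. The log2 fold change was -0.22 (SE 0.10, 95% interval -0.45 to 0.01, adjusted p = 0.216 by limma), and an exact permutation test (two-sided) returned p = 0.2, of which 0.1 is the least possible with 3 libraries a group. With the replicate block the interval was -0.36 to -0.09 and the adjusted p 0.0447 (limma). Without that block, the adjusted p of the alternatives tried lay between 0.144 and 0.439. The call of Rtn4 therefore rested on whether libraries of the same number were compared with each other. In both groups replicate 1 was the lowest and replicate 3 the highest.

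Reads at the 3′ end of Rtn4 can also belong to Eml6, which was singled out after its values were seen. Eml6 (ENSMUSG00000044072, chr11:29743048-30026033, minus strand) encodes a microtubule-associated protein of the EMAP family and shares 1284 exon bases (chr11:29743048-29744331) with the longest 3′ end of Rtn4. This end is reached by 1 annotated Rtn4 transcript. Eml6 was at 4.51, 4.81 and 4.74 FPKM with si-NC and at 2.48, 2.34 and 1.79 FPKM with si-circRtn4. Its mean fell from 4.69 ± 0.155 to 2.20 ± 0.369 FPKM (SD, n = 3), which is -0.83 as a log2 fold change (SE 0.11, adjusted p = 0.00570, limma). The sources used here do not state whether reads were counted by strand, so reads of the shared stretch cannot be assigned to either gene. Eml6 had 616 to 643 reads with si-NC and 241 to 338 with si-circRtn4 over its whole length. The mean difference was -328 reads for Eml6 and -824 reads for Rtn4.

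Rtn3 (ENSMUSG00000024758, chr19:7425901-7483289, minus strand) encodes a reticulon known as an ER-phagy receptor and as a binding partner of BACE1. It was at 44.3, 47.9 and 47.5 FPKM with si-NC and at 35.97, 36.4 and 41.1 FPKM with si-circRtn4. Every si-circRtn4 library lay below every si-NC library, as for 15.5% of all genes tested. The libraries of the same number stood at 81.3%, 76.1% and 86.4% of si-NC. The mean was 46.6 ± 1.99 FPKM with si-NC and 37.8 ± 2.81 FPKM with si-circRtn4 (SD, n = 3), 81.2% of the former. The log2 fold change was -0.29 (SE 0.08, 95% interval -0.48 to -0.11, adjusted p = 0.0612 by limma), and 11.1% of the genes tested had a value at or below it. The exact permutation p was 0.1, the smallest that 3 against 3 allow. Rtn3 was called lower with the replicate block (adjusted p = 0.0256, limma) and by limma-voom on recovered reads (log2 fold change -0.28, adjusted p = 0.0364). Under the other alternatives tried its adjusted p lay between 0.0533 and 0.190. Its coordinates or exon length differ from those of GENCODE M21, unlike those of the other 9 members. It shares only 4 exon bases with an annotated gene of the opposite strand, 2700081O15Rik.

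Rtn2 (ENSMUSG00000030401, chr7:19282624-19296160, plus strand) encodes an ER-shaping reticulon whose human counterpart is a hereditary spastic paraplegia gene. It was at 22.7, 22.6 and 23.0 FPKM with si-NC and at 20.3, 23.5 and 24.4 FPKM with si-circRtn4. The first si-circRtn4 library was below all si-NC libraries, and the other 2 were above them. The means were 22.8 ± 0.173 and 22.7 ± 2.17 FPKM (SD, n = 3), with a log2 fold change of -0.01 (95% interval -0.20 to 0.19, adjusted p = 0.971, limma). Its sign turned with the scaling, to 0.08 with libraries rescaled to a common FPKM sum. The si-NC libraries differed by a CV of 0.759%, less than the 2.57% that counting alone gives, while the si-circRtn4 libraries differed by 9.55%.

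Rtn1 (ENSMUSG00000021087, chr12:72211752-72409054, minus strand) encodes a reticulon known as a neuroendocrine marker. It had 1 read in the first si-NC library and none in the other 2, and 1 read in each si-circRtn4 library. In FPKM these were 0.0133, 0 and 0 against 0.0141, 0.0129 and 0.0138. All 6 libraries were under the floor of 3 reads, which corresponded to 0.0387 to 0.0430 FPKM for this gene, so no fold change is given. Rtn1 was thus not detected above the floor in either group at this depth.

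The make-up of reticulon RNA was compared as the share of each paralog in the summed FPKM of the 4 genes, which a common scaling factor of a library cannot change. Rtn4 made up 47.6%, 48.7% and 49.8% with si-NC and 47.1%, 48.6% and 48.9% with si-circRtn4. Its difference was -0.472 percentage points (exact permutation p = 0.6), and its groups overlapped. Rtn3 made up 34.6%, 34.9% and 33.9% with si-NC and 33.8%, 31.2% and 32.03% with si-circRtn4. Rtn2 made up 17.8%, 16.5% and 16.4% with si-NC and 19.1%, 20.2% and 19.0% with si-circRtn4. The groups of Rtn3 and of Rtn2 did not overlap, with differences of -2.08 and 2.55 percentage points. For Rtn3 the gap was narrow, from 33.86% in si-NC replicate 3 to 33.83% in si-circRtn4 replicate 1. A share also moves with the other paralogs, and the mean of Rtn2 itself was 22.8 FPKM with si-NC and 22.7 FPKM with si-circRtn4. For the Rtn3 and the Rtn2 share the exact permutation p was 0.1, the smallest possible, so neither could pass the threshold in this design. After adjustment over the 4 shares it was 0.133. The 4 include the Rtn1 share, which rests on at most 1 read a library. Its groups did not overlap either, and it also had an exact permutation p of 0.1. With recovered reads in place of FPKM, the p of the Rtn3 share was 0.2 by the exact permutation test. The summed FPKM of the 4 genes was 135 ± 6.39 with si-NC and 117 ± 10.9 with si-circRtn4 (SD, n = 3, exact permutation p = 0.2).

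**Figure D3:**
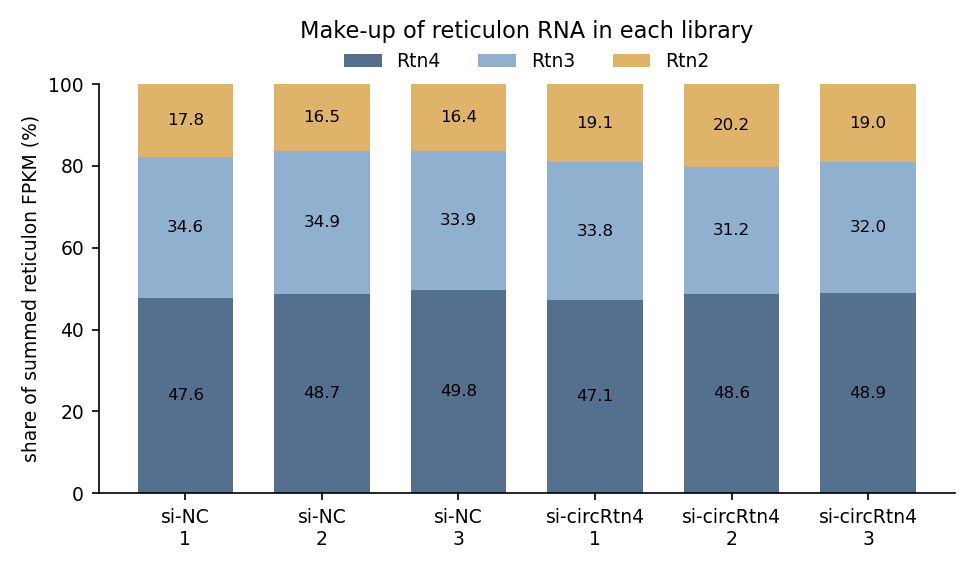
Share of Rtn4, Rtn3 and Rtn2 in the summed reticulon FPKM of each library, in percent, as stacked bars starting at 0 (Rtn1, at most 0.0133%, is not drawn). The Rtn2 segment is 16.4% to 17.8% of the bar with si-NC and 19.0% to 20.2% with si-circRtn4.

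The paralogs are related in the coding sequence of the C-terminal domain, which bears on whether reads could be shared between them. Over the last 570 coding bases of their longest coding transcripts, identity was 65.6% between Rtn1 and Rtn4, 65.2% between Rtn1 and Rtn3 and 63.7% between Rtn3 and Rtn4. Rtn2 was the most distant, with 50.5% to Rtn4, 51.2% to Rtn3 and 55.5% to Rtn1. Over the first 570 coding bases the pairs shared 41.5% to 48.5%. The longest identical run between any pair of reticulon transcripts was 13 to 16 bases, and that between any pair of Nogo receptor transcripts was 13 to 15 bases. Between any pair of members it was 11 to 33 bases. The longest were CA repeats shared by Rtn2 and Lingo1 (33 bases), Lingo1 and Ngfr (32 bases) and Rtn2 and Ngfr (31 bases).

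Of the 3 Nogo receptor genes, Rtn4rl1 alone was above the floor of 3 reads, at a low level. Rtn4rl1 (ENSMUSG00000045287, chr11:75193783-75267769, plus strand) encodes a Nogo receptor homolog that binds other inhibitory ligands. It was at 1.13, 1.02 and 0.669 FPKM with si-NC and at 1.16, 0.711 and 0.761 FPKM with si-circRtn4, from 33 to 60 reads a library. The groups overlapped over most of their range, with means of 0.940 ± 0.240 and 0.876 ± 0.244 FPKM (SD, n = 3). The gene was under the test minimum, and without that filter its log2 fold change was -0.05 (adjusted p = 0.904, limma). At this depth counting alone gives a CV of 14.4% with si-NC, against 25.6% between the libraries.

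Rtn4r (ENSMUSG00000043811, chr16:18127642-18152408, plus strand), the gene of the Nogo receptor itself, was listed at 0 in all 6 libraries. With the floor of 3 reads this allows at most 0.0995 to 0.111 FPKM per library. Rtn4rl2 (ENSMUSG00000050896, chr2:84871924-84886710, minus strand), which encodes the other homolog, had 1 read in the third si-circRtn4 library (0.0457 FPKM) and none elsewhere. Its floor was 0.128 to 0.142 FPKM, so neither receptor was detected above the floor in either group.

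Lingo1 (ENSMUSG00000049556, chr9:56618475-56796468, minus strand) encodes LINGO-1, a leucine-rich repeat co-receptor. Its level was 21.8, 17.6 and 13.0 FPKM with si-NC and 20.1, 16.2 and 15.3 FPKM with si-circRtn4. The si-circRtn4 values lay within the si-NC range, and in both groups replicate 1 was the highest and replicate 3 the lowest. The means were 17.4 ± 4.42 and 17.2 ± 2.55 FPKM (SD, n = 3). The log2 fold change was -0.000184 (SE 0.18, 95% interval -0.42 to 0.42, adjusted p = 0.999, limma). Lingo1 had the widest interval of the members tested, and the block narrowed it to -0.21 to 0.21. The libraries of a group differed by a CV of 25.3% with si-NC and 14.8% with si-circRtn4, where counting gives 2.89% in both.

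Ngfr (ENSMUSG00000000120, chr11:95568818-95587735, minus strand) encodes the p75 neurotrophin receptor. It was at 47.1, 36.2 and 37.8 FPKM with si-NC and at 36.5, 40.5 and 39.2 FPKM with si-circRtn4. The first si-NC library stood above the other 5, which lay between 36.2 and 40.5 FPKM. The means were 40.4 ± 5.90 and 38.7 ± 2.07 FPKM (SD, n = 3), with a log2 fold change of -0.05 (95% interval -0.30 to 0.20, adjusted p = 0.817, limma). Without the first si-NC library it was 0.06, and with libraries rescaled to the same FPKM sum 0.04.

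Rtn4ip1 (ENSMUSG00000019864, chr10:43901807-43957201, plus strand) encodes a mitochondrial protein that interacts with reticulon 4. It was at 5.41, 6.503 and 5.38 FPKM with si-NC and at 5.71, 5.97 and 5.18 FPKM with si-circRtn4, and the groups overlapped. The means were 5.77 ± 0.639 and 5.62 ± 0.401 FPKM (SD, n = 3), with a log2 fold change of -0.03 (95% interval -0.25 to 0.19, adjusted p = 0.886, limma). The gene carries a 3′ UTR seed site of the siRNA guide, shown above, and lay at the 43.8th percentile of the log2 fold changes of all genes tested. It shares 122 exon bases with Crybg1 on the opposite strand, which was at most 0.111 FPKM.

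**Figure D4:**
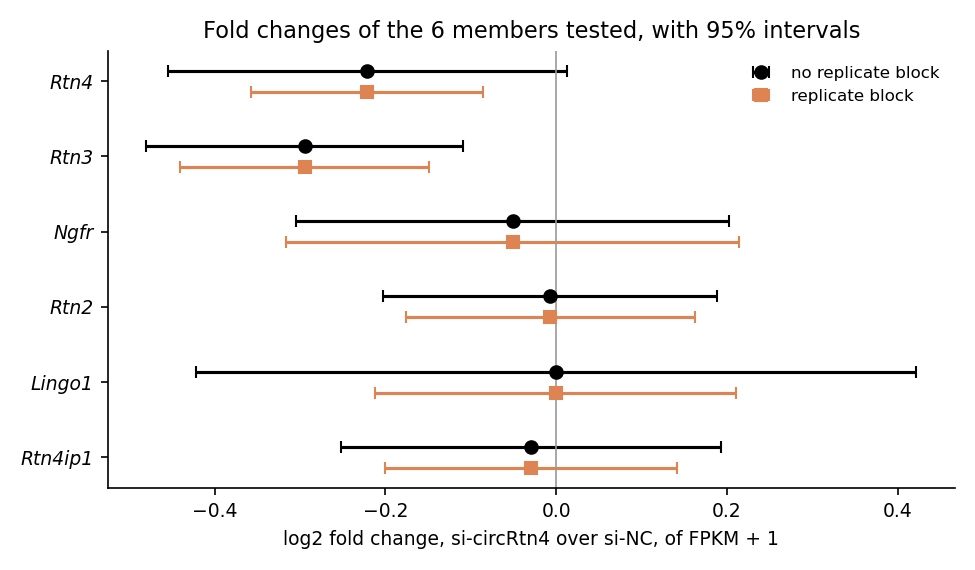
Log2 fold change (si-circRtn4 over si-NC, FPKM + 1) of the 6 members tested, with 95% intervals from limma without (black circles) and with (orange squares) the replicate number as a block. The interval of Rtn3 lies below 0 in both fits, that of Rtn4 lies below 0 with the block only, and those of Lingo1, Rtn2, Rtn4ip1 and Ngfr span 0.

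The order of the levels could be read from FPKM, which is per exon length, though a gene that uses a short isoform is understated by a length that joins all its exons. With si-NC the order of means was Rtn4, Rtn3, Ngfr, Rtn2, Lingo1, Rtn4ip1 and Rtn4rl1, followed by Rtn1, Rtn4rl2 and Rtn4r at or near 0. Rtn3 and Ngfr overlapped, since the highest Ngfr library (47.1 FPKM) lay above the lowest Rtn3 library (44.3 FPKM). The other neighbours from Rtn4 to Rtn4rl1 did not overlap in their 3 si-NC libraries. The closest of these were Rtn2, at 22.6 FPKM or more, and Lingo1, at 21.8 FPKM or less. With si-circRtn4 the means of Rtn3 (37.8 FPKM) and Ngfr (38.7 FPKM) again lay side by side.

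The genes whose values followed Rtn4 most closely over the 6 libraries were sought among 5269 other protein-coding genes at a mean of at least 10 FPKM. As a description over libraries that share depth, scaling and treatment group, the highest Pearson r of log2(FPKM + 1) was that of Rab7 (0.998), a late endosome GTPase. It was followed by Rnf145 (0.996), a ubiquitin ligase of the ER membrane, and Sfpq (0.996), a splicing factor. Rab7 was at 87.1, 93.8 and 97.7 FPKM with si-NC and at 75.4, 83.7 and 88.9 FPKM with si-circRtn4, in the same order of libraries as Rtn4. Among the members, r with Rtn4 was 0.910 for Rtn3, with 238 genes above it, 0.616 for Rtn2, -0.00643 for Ngfr and -0.583 for Lingo1.

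The surrounding pathways were described by 6 lists with 83 genes, of which 65 were tested. In all, 5 of the 65 were called lower and 3 higher, where 4.82% and 4.36% of all genes tested were called, and the median log2 fold change was -0.04. With the block, 10 of the 65 were called lower and 9 higher, where 9.75% and 9.29% of all genes tested were called. An unadjusted p under 0.05 was reached by 20 of the 65, against 25.9% of all genes tested. Among the Nogo receptor ligands and partners, 6 of 14 genes were tested and 0 were called by limma or limma-voom in either direction, with 1 at an unadjusted p under 0.05 (Lingo3). The median of this list was -0.14. The myelin ligand genes Mag and Omg had at most 2 reads in any library, under the floor of 3 reads. Pirb, an alternative Nogo receptor gene, and Lingo2 were listed at 0 in all libraries. The most abundant gene of the list, Olfm1, which encodes a secreted protein that binds the Nogo receptor, was at 39.1, 34.2 and 32.2 FPKM with si-NC and at 30.5, 29.5 and 31.1 FPKM with si-circRtn4. Its log2 fold change was -0.20 (adjusted p = 0.196, limma). Lingo3, a paralog of Lingo1, was called higher with the block alone (0.48, adjusted p = 0.0319, limma).

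The p75 receptor partners held the largest change of the lists. Of 14 neurotrophin and p75 partner genes, 8 were tested, 2 were called lower and 1 higher, with a median of 0.18. Over all genes tested, 4.82% were called lower and 4.36% higher. An unadjusted limma p under 0.05 was reached by 5 of the 8, against 25.9% of all genes tested. With the block 2 were called lower and 3 higher, against 9.75% and 9.29% of all genes tested. Sort1, which encodes sortilin, the co-receptor of p75 for proneurotrophins, was at 25.3, 26.9 and 23.7 FPKM with si-NC and at 10.7, 12.3 and 13.0 FPKM with si-circRtn4. Every si-circRtn4 library was under every si-NC library, as for 15.5% of all genes tested, and here by more than 10 FPKM. The log2 fold change of Sort1 was -1.02 (SE 0.09, adjusted p = 0.00221, limma). Its partner Ngfr stood at 95.9% of its si-NC mean. Maged1, an adaptor that binds p75, fell from 199 ± 16.8 to 146 ± 9.42 FPKM (-0.45, adjusted p = 0.0267, limma). Nradd, a death domain protein related to p75, rose from 15.1 ± 0.716 to 19.5 ± 0.462 FPKM (0.35, adjusted p = 0.0243, limma). The calls of Maged1 and Nradd were each lost when any of 5 of the 6 libraries was left out, and that of Maged1 also with no filter on low values (adjusted p = 0.0845, limma), whereas that of Sort1 held under all 13 alternatives.

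The RhoA pathway, which carries the signal of the receptor complex to the cytoskeleton, was almost wholly expressed, with 18 of 19 genes tested. Of these 1 was called lower and 1 higher, against 4.82% and 4.36% of all genes tested, and the median was 0.015. An unadjusted limma p under 0.05 was reached by 5 of the 18, against 25.9% of all genes tested. With the block 2 were called lower, Prkca and Arhgef11, and 3 higher, Arhgef2, Rhob and Limk2. Over all genes tested, the fit with the block called 9.75% lower and 9.29% higher. Arhgef2, a microtubule-bound activator of RhoA, rose from 31.5 ± 4.37 to 43.8 ± 1.595 FPKM (0.47, adjusted p = 0.0356, limma). Prkca, a protein kinase C gene, fell from 4.93 ± 0.475 to 3.33 ± 0.506 FPKM (-0.46, adjusted p = 0.0473, limma). Both calls were lost when any of 5 of the 6 libraries was left out and with no filter on low values (adjusted p = 0.1002 and 0.142, limma), and that of Prkca also with rescaling to the same FPKM sum and with quantile normalization.

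The ER-shaping proteins, which work with reticulons on ER tubules and their junctions, had 17 of 18 genes tested, with 1 called lower, 1 higher and a median of -0.08. Over all genes tested, 4.82% were called lower and 4.36% higher. An unadjusted limma p under 0.05 was reached by 5 of the 17, against 25.9% of all genes tested. With the block 2 were called lower, Arl6ip1 and Reep4, and 2 higher, Reep2 and Lnpk. Of all genes tested, the fit with the block called 9.75% lower and 9.29% higher. Reep2, a membrane-bending protein of the REEP family, was at 36.6, 32.1 and 37.5 FPKM with si-NC and at 58.6, 58.3 and 68.0 FPKM with si-circRtn4. The groups did not overlap, as for 4044 of the 12749 genes tested, counting both directions. The log2 fold change of 0.78 (SE 0.09, adjusted p = 0.00436, limma) held its call under all 13 alternatives. Arl6ip1, a reticulon-like ER membrane protein, fell from 66.9 ± 5.36 to 48.1 ± 3.87 FPKM (-0.47, adjusted p = 0.0229, limma), a call lost when any of 4 of the 6 libraries was left out and with no filter on low values (adjusted p = 0.0663, limma).

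The ER-phagy receptors, the class to which RTN3 belongs, had 7 of 8 genes tested and 0 called by limma or limma-voom. An unadjusted limma p under 0.05 was reached by 3 (Sec62, Retreg1 and Retreg3), against 25.9% of all genes tested. The median was -0.11. With the block 2 were called lower, Sec62 and Retreg3, against 9.75% of all genes tested. Quantile normalization gave 1 called lower. Rescaling to the same FPKM sum gave 1 called higher. The most abundant of them, Retreg2, was at 39.0 ± 3.81 and 35.9 ± 1.65 FPKM (-0.11, adjusted p = 0.478, limma).

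The BACE1 and gamma-secretase genes encode the enzymes that cut the amyloid precursor protein, and reticulons are known to bind BACE1. Of these genes and App, 9 of 10 were tested. The median was -0.11, and 1 gene was called lower and 0 higher by limma or limma-voom. Of all genes tested, limma called 4.82% lower and 4.36% higher. An unadjusted limma p under 0.05 was reached by 1 of the 9, against 25.9% of all genes tested. With the block 2 were called lower, App and Ncstn, against 9.75% of all genes tested. The gene called without it was App, the amyloid precursor itself, at 57.7, 58.2 and 60.7 FPKM with si-NC and at 34.1, 34.3 and 38.8 FPKM with si-circRtn4. Every si-circRtn4 library lay below every si-NC library, as for 15.5% of all genes tested. The log2 fold change of -0.71 (SE 0.08, adjusted p = 0.00324, limma) held its call under all 13 alternatives. Bace1 was at 5.85 ± 0.452 and 5.33 ± 0.437 FPKM (-0.11, adjusted p = 0.483, limma).

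**Figure D5:**
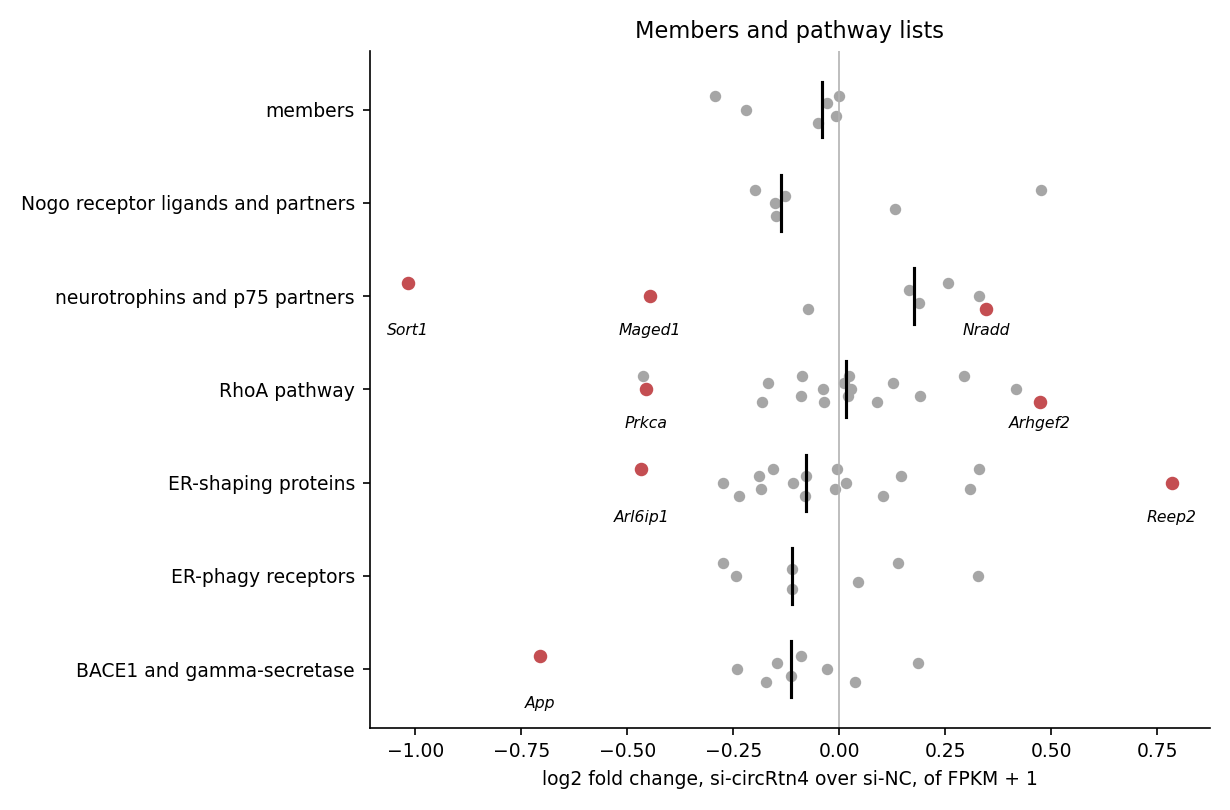
Log2 fold change (si-circRtn4 over si-NC, FPKM + 1) of each gene tested, by list, with genes called at an adjusted p of 0.05 by limma in red with their names, the others in grey and the median of each list as a black line. The 6 members lie between -0.29 and 0, while Sort1 (-1.02), App (-0.71) and Reep2 (0.78) stand farthest from 0.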

How the data were processed

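The authors made and deposited a table of FPKM by gene, which also lists gene lengths. The submitters' processing notes name Bowtie 0.12.2 and the builds mm8 and mm9, while 98.1% of the genes listed had the start and end of GENCODE M21 (GRCm38). Gene counter and strand setting are not given in the sources used here. Libraries were grouped by their titles, and 6 columns of other samples were not used. FPKM multiplied by length gave whole reads for 100% of values (tolerance 0.05).

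The deposited FPKM, on the log2(FPKM + 1) scale, entered limma 3.58.1 under R 4.3.3 (lmFit, eBayes with trend) for 12749 genes at a mean of at least 1 FPKM, two-sided, with Benjamini-Hochberg adjustment and a threshold of 0.05. Fold changes on this scale understate those of low genes. Exact permutation tests were two-sided. The code was tested on simulated data with larger fold changes than those of the members and no effect of the replicate number. That test does not bear on the calls of the members. Libraries that share a replicate number deviated together from their group means (r = 0.331, 0.190 and 0.226, against at most 0.00913 for others). Deviations from a group mean cancel out within the group, so these r values depend on each other and the low ones are no separate contrast. They come from the same data as the fits and do not show that the libraries were paired. The numbers were treated as pairs in the fit with a block, although the labels do not say what a number shares. The alternatives were a pseudocount of 0.1, no filter, rescaling to a common FPKM sum with and without Gm23935, quantile normalization, limma-voom on recovered reads, the block and leaving out each library.

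All 10 members were named. From each list the called genes were named, at most the 4 with the largest change, or the most abundant gene where none was called. The 3 protein-coding genes with the highest r with Rtn4 were also named. Eml6, Bace1, the list genes called with the block alone, Retreg1, Mag, Omg and the genes listed at 0 were named after their values were seen. The members and lists were chosen with earlier results of these data known. The other steps used matplotlib 3.10.9, pandas 2.3.3, scipy 1.17.1 and numpy 2.4.6 under Python 3.11.15.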

Additional observations from a re-analysis of the deposited data

How the results depend on the processing

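Of the members, Rtn3 and Rtn4 kept a negative log2 fold change under all 13 alternatives, with -0.35 to -0.26 and -0.30 to -0.14 when 1 library was left out. Rtn3 passed the threshold with the replicate block (-0.29) and with limma-voom on recovered reads (-0.28), and Rtn4 with the replicate block (-0.22). The block changed no other call of a member. The sign of the other 4 depended on the scaling. Rescaling to a common FPKM sum gave 0.0844 for Rtn2, 0.0555 for Rtn4ip1, 0.0918 for Lingo1 and 0.0406 for Ngfr, and it moved the median of all genes from 0.00197 to 0.09. Rescaling without Gm23935 gave 0.0145 for Rtn2 and 0.0225 for Lingo1, limma-voom gave 0.0166 and 0.0196, and a pseudocount of 0.1 gave 0.000973 for Lingo1. Leaving out 1 library gave -0.0577 to 0.0698 for Rtn2, -0.0691 to 0.0476 for Rtn4ip1, -0.19 to 0.17 for Lingo1, -0.122 to 0.0628 for Ngfr and -0.995 to 0.0879 percentage points for the Rtn4 share, which was above 0 without si-NC replicate 3 (0.0692) or si-circRtn4 replicate 1 (0.0879). The shares of Rtn2 and Rtn3 kept their direction, as did that of Rtn1, which rests on at most 1 read a library.

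The members called lower (0) became 1 with limma-voom and 2 with the replicate block. Of the list genes, 5 were called lower and 3 higher. The lower calls became 2 with no filter, 10 with the block and 2 to 5 without 1 library, and the higher calls 8 with rescaling, 6 with limma-voom, 9 with the block and 1 to 2 without 1 library. Leaving out any library but si-circRtn4 replicate 3 took the lower calls to 2 or 3. Over all genes, 615 were called lower and 556 higher. The numbers were 261 and 210 with no filter, 1243 and 1185 with the block, 393 and 972 with rescaling, and 217 to 419 and 163 to 407 without 1 library, and limma-voom called 903 higher. Where 1 library is left out fewer libraries enter the test, and with no filter more genes are tested. The cause of the other shifts was not tested. Rtn1, Rtn4r and Rtn4rl2 are limited by depth, with at most 1 read a library.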
